A study of Homo sapiens with 12 samples.

Results

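The squamous lineage transcription factors described here are 9 genes, TP63, SOX2, GRHL2, GRHL3, OVOL1, ZNF750, ELF3, EHF and PITX1, taken by their symbols out of the 58288 genes listed in an RNA-Seq table of FaDu cells. FaDu is an established line from a squamous carcinoma of the pharynx, a head and neck squamous cell carcinoma (HNSCC). All cells carried lentiviral Cas9 and a puromycin-selected guide RNA: STING WT cells a non-targeting guide, and STING KO cells a guide against STING (gene TMEM173, now STING1), an adaptor that passes on the signal of cytosolic DNA. Each genotype was sequenced unirradiated (0 Gy) and after radiation (RT), given once a day as 4 fractions of 2 Gy, which makes 4 groups of 3 libraries, 12 in all. Each genotype was 1 guide-selected line, so an effect of STING loss and another difference between the lines cannot be told apart. The interval from the last fraction to RNA collection is not given in the sources used here, and nothing says that the 3 libraries of a group came from separate cultures, so the p-values measure only the spread between these libraries. Of the 9 genes, 8 reached 1 TPM (transcripts per 1000000) in at least 3 of the 12 libraries and were tested among 15973 genes. GRHL3 did not.

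These factors work in layers. TP63 encodes p63, the master regulator of stratified epithelium, which keeps basal cells squamous, and SOX2 encodes a high mobility group factor that is often amplified with TP63 in squamous carcinoma. GRHL2 and GRHL3 are grainyhead-like factors of epithelial junctions and barrier formation, OVOL1 is a zinc finger repressor that moves keratinocytes out of proliferation, and ZNF750 is a p63 target that promotes terminal differentiation. ELF3 and EHF are epithelium-restricted ETS factors with roles in differentiation, and PITX1 is a homeobox factor expressed in oral and other squamous epithelium.

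SOX2 was the only factor past a limma adjusted p of 0.05 between the genotypes, and ELF3 had the largest change after radiation. The RefSeq promoter windows of these 2 genes are therefore shown, 250 bases before to 50 after the annotated start. They are read 5′ to 3′ from GRCh38.p14. The SOX2 window lies on the plus strand at chr3:181711675-181711974, and the capitals mark its GC box, found as the reverse complement of GGGCGG 112 bases before the start.
SOX2: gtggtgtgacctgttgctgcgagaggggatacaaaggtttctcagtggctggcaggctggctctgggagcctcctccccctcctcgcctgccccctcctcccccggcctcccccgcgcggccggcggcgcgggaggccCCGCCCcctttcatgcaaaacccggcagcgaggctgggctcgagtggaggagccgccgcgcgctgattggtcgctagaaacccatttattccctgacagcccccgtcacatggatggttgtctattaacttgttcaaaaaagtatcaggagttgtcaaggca
The ELF3 window lies on the plus strand at chr1:202010337-202010636, and the capitals mark a TATA box (TATAAA) that begins 34 bases before the start.
ELF3: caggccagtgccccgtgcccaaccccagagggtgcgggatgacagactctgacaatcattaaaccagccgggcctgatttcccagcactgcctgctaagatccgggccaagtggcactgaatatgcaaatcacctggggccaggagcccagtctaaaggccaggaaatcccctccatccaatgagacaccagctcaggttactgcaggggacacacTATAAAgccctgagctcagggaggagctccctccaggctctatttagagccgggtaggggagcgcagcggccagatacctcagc
Windows were matched for 6 of the 9 factors, TP63, SOX2, GRHL3, ELF3, EHF and PITX1. The motifs searched, on both strands, were the interferon-stimulated response element, AACCNGTT for grainyhead factors, CCGGAA for the core of ETS sites, CCATTGTT for SOX factors, and the GC and TATA boxes spelled above. Only the GC and TATA box letters were found in these 6 windows. PITX1 held 4 GC boxes, SOX2 and GRHL3 1 each, and ELF3 1 TATA box. TP63 held the TATAAA letters once, but after the start, at base 45 counted with the start as base 1. The TP63 window lies at the 5′ end of the gene, and any start further inside the gene was not searched. Of 35116 promoter windows of the same length, 45.0% held the GC box, 11.5% the TATA box, 17.2% the ETS core, 3.57% the interferon-stimulated element, 1.73% the grainyhead letters and 0.877% the SOX letters. A match of letters is a description and not a binding site.

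TMEM173 checked the genotype labels. Its mean was 22.1 ± 1.24 TPM (SD, n = 3) in unirradiated WT and 5.81 ± 0.995 TPM in unirradiated KO libraries, and 23.1 ± 2.61 and 6.95 ± 0.544 TPM after radiation, with no overlap (log2 fold change −1.77 and −1.60, limma adjusted p = 1.2e-05 and 2.0e-05). Every library summed to 1000000 TPM, so the depth behind a value is unknown. Between 14860 and 15292 genes reached 1 TPM in a library, and libraries of one group correlated at r = 0.983 to 0.987 over the genes. All 12 squamous markers (keratins of basal cells, desmosomal cadherins and others) averaged at least 1 TPM, led by KRT17 at 3741 TPM, and summed to 9261 to 9298 TPM in unirradiated WT, 9107 to 10808.5 in unirradiated KO, 8620 to 9079 in irradiated WT and 7946 to 8880 in irradiated KO libraries. Of 11 glandular markers 6 did, led by KRT8 at 1699 TPM, with KRT20 listed at 0. Of 7 fibroblast markers only COL1A1 did, at 7.28 TPM, with LUM listed at 0, and of 8 blood and endothelial markers 3 did, led by CDH5 at 13.2 TPM. The summed level of this last list was 14.4 to 16.5 TPM in unirradiated WT, 16.8 to 20.1 in unirradiated KO, 21.6 to 22.1 in irradiated WT and 23.1 to 27.0 in irradiated KO libraries, and that of the glandular list 3006 to 3611, 3694 to 3872, 3566 to 4129 and 4117 to 4393 TPM. Their part in the results below was not tested. In bulk RNA, fewer cells of a kind and less RNA per cell cannot be told apart.

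Across the 9 factors, levels in unirradiated WT cells spanned from 239 TPM for ELF3 to 0.515 TPM for GRHL3 (TPM is scaled by transcript length, so levels may be compared between genes). ELF3 stood above all other factors in each of the 4 groups without overlap. TP63 and GRHL2 came next at 98.0 and 91.8 TPM and their libraries overlapped. PITX1 and EHF followed at 46.0 and 44.4 TPM, again overlapping. OVOL1, SOX2 and ZNF750 lay at 4.36, 3.46 and 2.86 TPM, each overlapping its neighbour in this order. The order at this low end differed between groups: in unirradiated KO cells SOX2 (6.62 TPM) stood above OVOL1 (3.56 TPM) without overlap, and in irradiated WT cells OVOL1 (6.49 TPM) stood above ZNF750 (2.78 TPM) and SOX2 (2.63 TPM). In irradiated KO cells EHF stood above PITX1 at 63.4 TPM, and its libraries overlapped those of TP63 (72.2 TPM) and PITX1 (45.0 TPM).

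**Figure D1:**
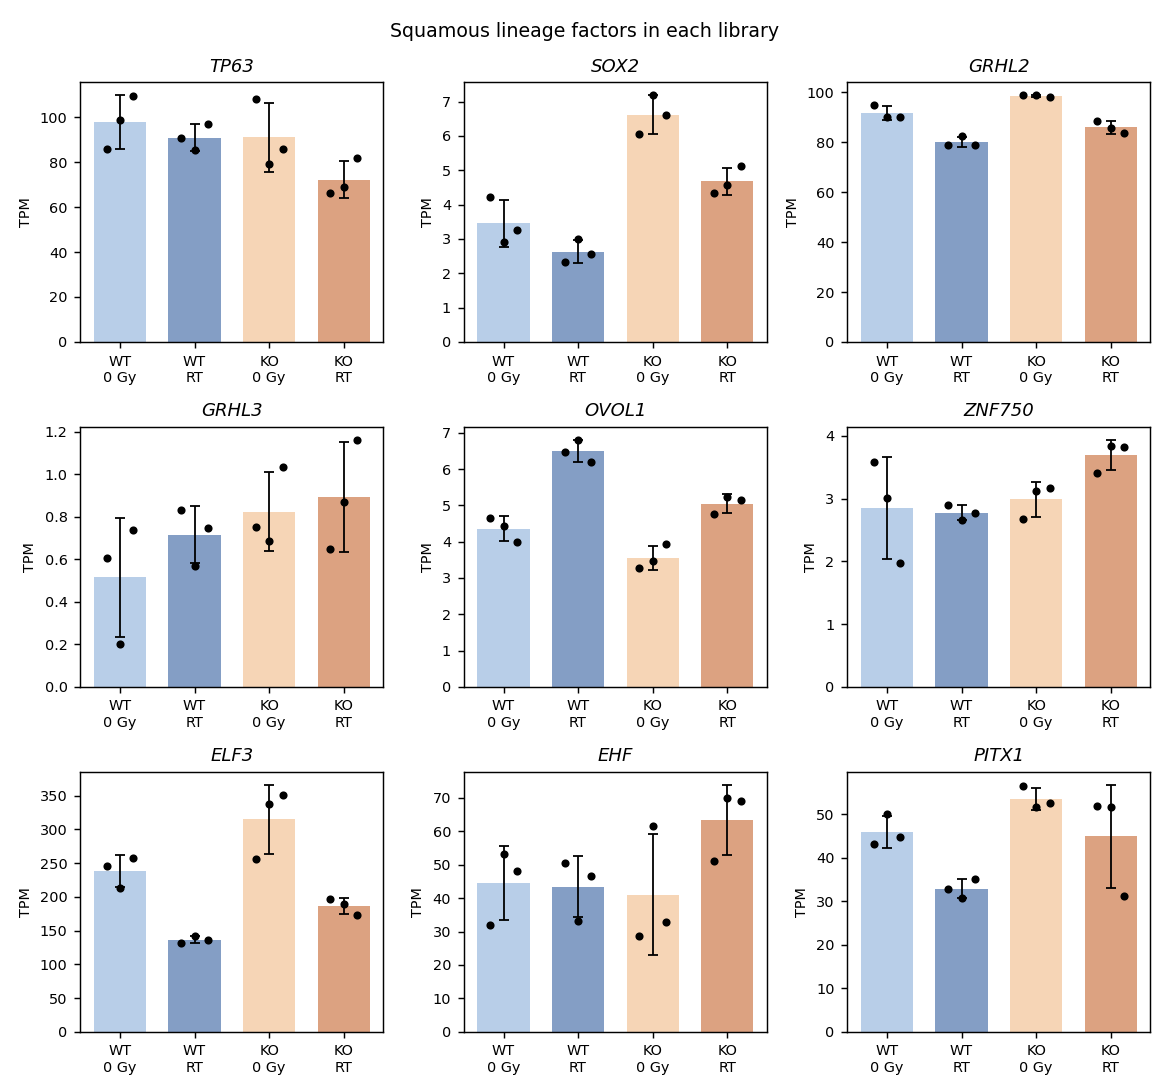
TPM of each factor in the 4 groups. Bars are means of 3 libraries, error bars SD, and points single libraries; each panel has its own scale from 0. SOX2 was higher in every KO than in every WT library of the same treatment, and ELF3 was lower in every irradiated library than in every unirradiated library of the same genotype.

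The genotype comparison asks which transcripts differ between the STING KO and the STING WT line, without and with radiation. Of the 8 tested factors, SOX2 alone passed the threshold (adjusted p of 0.05) in KO against WT, in both unirradiated and irradiated cells, and it was higher in KO. Of all tested genes, 1.73% passed in unirradiated cells (74 or 0.463% higher, 202 or 1.26% lower) and 3.59% in irradiated cells (148 or 0.927% higher, 425 or 2.66% lower). The split depends on scaling: after median-of-ratios factors it was 115 higher and 191 lower in unirradiated cells. Libraries of KO and WT did not overlap for 4 of the 8 factors without radiation (SOX2, GRHL2, OVOL1 and PITX1), against 20.6% of all tested genes. After radiation they did not overlap for 7 of 8, against 24.1% of all tested genes: SOX2, GRHL2, ZNF750, ELF3 and EHF were higher and TP63 and OVOL1 lower in all KO libraries. The median log2 fold change of the 8 was 0.09 without and 0.36 with radiation, and that of all tested genes −0.021 and −0.017.

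The radiation comparison asks which transcripts move after fractionated doses in each genotype. The same 3 factors passed in both genotypes, ELF3 and GRHL2 lower and OVOL1 higher after radiation, which is 3 of 8 where 3.74% of all tested genes passed in WT cells (357 higher, 240 lower) and 3.69% in KO cells (319 higher, 271 lower). After median-of-ratios factors these splits were 300 higher and 306 lower in WT and 273 higher and 382 lower in KO cells, while the 3 factors kept their calls. Libraries did not overlap for 4 of 8 factors in WT cells, against 24.8% of all tested genes, and for 5 of 8 in KO cells, against 24.3%. The WT and KO comparisons use separate libraries but share an estimate of the spread of each gene over all 12 libraries. With only the 6 compared libraries, 1 factor was called in WT and 0 in KO cells. No factor passed when the radiation effect in KO cells was tested against that in WT cells, where 0.0188% of all tested genes (3 genes) passed. At an unadjusted p under 0.05 that test held 1056 genes and none of the 8 factors, the lowest unadjusted p being 0.12 for EHF.

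**Figure D2:**
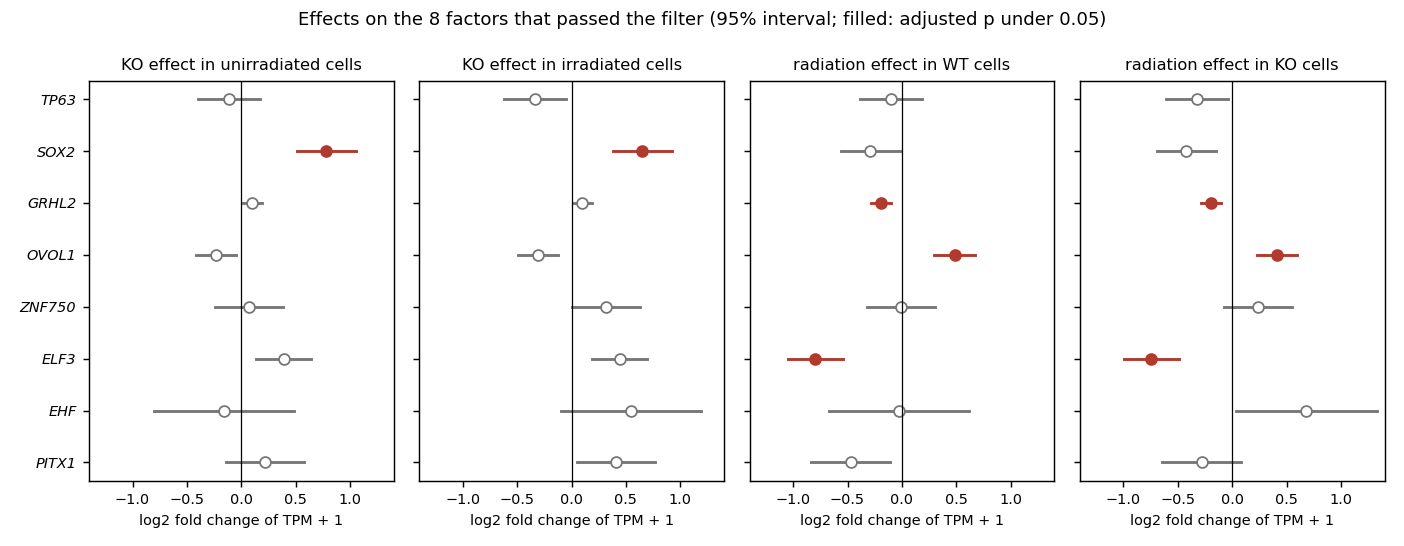
Log2 fold changes of TPM + 1 for the 8 factors tested, with 95% intervals, in the 4 comparisons (KO against WT, or RT against 0 Gy). Filled points passed an adjusted p of 0.05: SOX2 in both genotype comparisons, and GRHL2, OVOL1 and ELF3 in both radiation comparisons.

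SOX2 (GRCh38 chromosome 3, 181711924 to 181714436, plus strand, a gene with 1 annotated transcript) was listed at 4.22, 2.90 and 3.25 TPM in unirradiated WT and at 6.07, 7.20 and 6.60 TPM in unirradiated KO libraries. After radiation it was listed at 2.34, 2.99 and 2.55 TPM in WT and 4.35, 4.58 and 5.11 TPM in KO libraries. Every KO library thus lay above every WT library of the same treatment, and irradiated KO libraries still lay above all unirradiated WT libraries. The KO to WT ratio of means was 1.92 without and 1.78 with radiation. On the log2(TPM + 1) scale, which understates the change of a gene this low, the differences were 0.78 ± 0.12 (SE; limma adjusted p = 0.0083) and 0.65 ± 0.12 (adjusted p = 0.017). The call in unirradiated cells held in all 12 fits that left out 1 library but not in the fit of the 6 compared libraries alone (adjusted p = 0.085). The call in irradiated cells was lost without WT RT replicate 1 (difference 0.59, adjusted p = 0.072), WT RT replicate 3 (0.64, 0.059) or KO RT replicate 3 (0.59, 0.068), and with the 6 compared libraries alone (adjusted p = 0.058).

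Radiation left SOX2 lower on average in both genotypes without a call. The log2 differences were −0.29 in WT (95% interval −0.56 to −0.019, adjusted p = 0.24) and −0.42 in KO cells (−0.69 to −0.15, adjusted p = 0.091), and in KO cells all 3 irradiated libraries lay below all 3 unirradiated ones. SOX2 lies inside the long noncoding gene SOX2-OT on the same strand. SOX2-OT averaged 0.181 TPM in unirradiated WT, 0.302 in unirradiated KO, 0.397 in irradiated WT and 0.336 in irradiated KO cells, with no library above 0.563 TPM.

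TP63 (chromosome 3, 189631416 to 189897279, plus strand) has 14 annotated transcripts, and the table sums them, so its TA and ΔN forms are not separated. It was listed at 85.7, 98.7 and 109.6 TPM in unirradiated WT, 108, 79.0 and 85.9 in unirradiated KO, 90.6, 85.2 and 96.9 in irradiated WT and 66.2, 68.7 and 81.7 in irradiated KO libraries. All irradiated KO libraries lay below all irradiated WT libraries, whereas the unirradiated groups overlapped. No TP63 comparison passed the threshold: the log2 difference between KO and WT was −0.11 without radiation (95% interval −0.40 to 0.17, adjusted p = 0.76) and −0.33 with it (−0.62 to −0.047, adjusted p = 0.21), and the radiation effect was −0.10 in WT (−0.39 to 0.18, adjusted p = 0.74) and −0.32 in KO cells (−0.61 to −0.038, adjusted p = 0.21).

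GRHL2 was listed at 94.8, 90.1 and 90.4 TPM in unirradiated WT libraries and at 79.0, 82.6 and 78.9 TPM after radiation. In KO libraries it was listed at 98.8, 99.0 and 98.0 TPM, and at 88.6, 85.8 and 83.6 TPM after radiation. The groups did not overlap in any of the 4 comparisons, although the changes were small: the mean was 12.6% lower after radiation in WT and 12.8% lower in KO cells (log2 difference −0.19 ± 0.041 and −0.20 ± 0.041, limma adjusted p = 0.032 and 0.029). These calls sit near the threshold. In WT cells the call held in 4 of the 12 fits without 1 library (those without KO 0 Gy replicate 1 or any KO RT replicate) with adjusted p from 0.038 to 0.11, and in KO cells in 7 of 12, being lost without any KO 0 Gy replicate or KO RT replicate 2 or 3, with adjusted p from 0.033 to 0.089. Without the variance trend both calls were lost (limma adjusted p = 0.065 in WT and 0.061 in KO cells). They were also lost with the replicate block (0.064 and 0.058) and with only the 6 compared libraries (0.14 and 0.12). The KO to WT difference of GRHL2 was 0.10 both without (95% interval 0.012 to 0.19, adjusted p = 0.29) and with radiation (0.0085 to 0.19, adjusted p = 0.23).

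GRHL3 (chromosome 1, 24319322 to 24364482, plus strand) was listed at 0.606, 0.202 and 0.737 TPM in unirradiated WT, 0.751, 0.688 and 1.03 in unirradiated KO, 0.831, 0.568 and 0.748 in irradiated WT and 0.649, 0.869 and 1.16 in irradiated KO libraries. The groups overlapped in all 4 comparisons, and 2 libraries reached 1 TPM. Two-sided exact permutation tests, whose smallest possible p is 0.1 with 3 libraries against 3, gave p = 0.2 and 0.4 for genotype without and with radiation and p = 0.4 and 0.7 for radiation in WT and KO cells. STPG1, which overlaps GRHL3 on the opposite strand, averaged 7.29 to 8.41 TPM over the groups, and the strand setting of the counting is not given in the sources used here.

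OVOL1 (chromosome 11, 65787022 to 65797219, plus strand) was the only factor past the threshold that was higher after radiation. It was listed at 4.65, 4.44 and 3.99 TPM in unirradiated and 6.46, 6.81 and 6.21 TPM in irradiated WT libraries, and at 3.29, 3.47 and 3.93 TPM in unirradiated and 4.76, 5.23 and 5.15 TPM in irradiated KO libraries. The means were 1.49 times higher in WT and 1.42 times higher in KO cells (log2 difference 0.48 ± 0.083 and 0.41 ± 0.083, limma adjusted p = 0.012 and 0.026). The WT call was lost without WT RT replicate 1 (adjusted p = 0.050) or 2 (0.055), and the KO call without KO 0 Gy replicate 1 (0.087) or 2 (0.085) or KO RT replicate 2 (0.086) or 3 (0.077). With only the 6 compared libraries both calls were lost (0.073 in WT and 0.13 in KO cells), and with no filter on low values the KO call was lost (0.066). OVOL1 was lower in every KO than in every WT library of the same treatment, but the differences of −0.23 (95% interval −0.42 to −0.048, adjusted p = 0.23) and −0.31 (−0.49 to −0.12, adjusted p = 0.077) did not pass. The antisense gene OVOL1-AS1 reached at most 0.649 TPM in a library.

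ZNF750 (chromosome 17, 82829435 to 82840578, minus strand) was listed at 3.58, 3.01 and 1.98 TPM in unirradiated WT, 2.67, 3.12 and 3.17 in unirradiated KO, 2.90, 2.66 and 2.78 in irradiated WT and 3.42, 3.85 and 3.83 in irradiated KO libraries. The irradiated KO libraries lay above those of irradiated WT and of unirradiated KO cells, and no comparison passed (KO against WT after radiation 0.31, 95% interval −0.00011 to 0.63, adjusted p = 0.28). ZNF750 lies within TBCD, a tubulin folding cofactor gene on the opposite strand. TBCD averaged 94.9 TPM in unirradiated WT, 97.7 in unirradiated KO, 63.7 in irradiated WT and 105.5 in irradiated KO cells (KO against WT after radiation 0.69, adjusted p = 0.18), so it too was lower in irradiated WT than in irradiated KO cells, and its part in the ZNF750 values was not tested.

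ELF3 (chromosome 1, 202007945 to 202017188, plus strand) had the largest radiation effect of the 8 factors tested. It was listed at 246, 212 and 258 TPM in unirradiated WT libraries and at 132, 142 and 136 TPM after radiation. In KO libraries it was listed at 257, 337 and 351 TPM unirradiated and at 197, 189 and 173 TPM irradiated. No irradiated library of either genotype reached the lowest unirradiated one. The mean was 42.8% lower in WT and 40.9% lower in KO cells (log2 difference −0.80 ± 0.11 and −0.74 ± 0.11, limma adjusted p = 0.0046 and 0.0064). Both calls held in all 12 fits without 1 library, and the call in KO cells was lost when only the 6 compared libraries were fitted (adjusted p = 0.063). The difference between these radiation effects was 0.05 (95% interval −0.30 to 0.41).

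ELF3 was also higher in KO than in WT cells on average, with no overlap after radiation, but without a call. The log2 differences were 0.39 ± 0.11 (adjusted p = 0.14) without and 0.44 ± 0.11 (adjusted p = 0.065) with radiation. Both passed when KO 0 Gy replicate 1, at 257 TPM the lowest of its group, was left out, at 0.53 (adjusted p = 0.019) and 0.44 (adjusted p = 0.015), the second unchanged in size because that library is not in it. ELF3-AS1, whose annotated start lies 124 bases before the ELF3 start and thus inside the promoter window printed above, runs on the opposite strand and overlaps the longest annotated form of ELF3. ELF3-AS1 averaged 13.2 TPM in unirradiated WT, 18.6 in unirradiated KO, 8.12 in irradiated WT and 14.5 in irradiated KO cells. ELF3-AS1 fell with radiation in WT cells (−0.65, adjusted p = 0.031), was −0.32 in KO cells (adjusted p = 0.24), and was higher in KO than WT cells after radiation (0.78, adjusted p = 0.012). Without a stated strand setting, reads of ELF3 and ELF3-AS1 cannot be told apart where they overlap.

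EHF (chromosome 11, 34621093 to 34661057, plus strand) varied most between libraries of one group. It was listed at 32.0, 53.3 and 48.1 TPM in unirradiated WT, 28.5, 61.7 and 32.9 in unirradiated KO, 50.4, 33.0 and 46.8 in irradiated WT and 51.2, 70.1 and 69.0 in irradiated KO libraries. The irradiated KO libraries all lay above the irradiated WT libraries, and every other comparison overlapped. The radiation effect was −0.02 in WT cells (95% interval −0.67 to 0.62) and 0.68 in KO cells (0.037 to 1.33, adjusted p = 0.25). Their difference, 0.71 (−0.21 to 1.62, adjusted p = 0.84), did not pass. So ELF3 and EHF, related ETS factors, differed in that ELF3 passed after radiation in both genotypes, while EHF passed in neither; whether they differ from each other was not tested.

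PITX1 (chromosome 5, 135027735 to 135034813, minus strand) was listed at 43.1, 50.1 and 44.8 TPM in unirradiated and 32.8, 30.7 and 35.1 TPM in irradiated WT libraries, and at 56.5, 51.7 and 52.5 TPM in unirradiated and 52.0, 51.7 and 31.3 TPM in irradiated KO libraries. In WT cells all irradiated libraries lay below all unirradiated ones (−0.47, 95% interval −0.83 to −0.11, adjusted p = 0.16). KO RT replicate 3, at 31.3 TPM, stood among the irradiated WT libraries. Without it the KO to WT difference after radiation was 0.64 (adjusted p = 0.0030) in place of 0.41 (adjusted p = 0.22), and the WT radiation effect, unchanged in size, passed (adjusted p = 0.0097).

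The spread between libraries of one group differed widely among the factors. The pooled within-group SD on the log2(TPM + 1) scale was 0.40 for EHF, larger than in 95.8% of the 2467 tested genes whose mean lay within 0.5 of it on that scale, and 0.22 for PITX1, larger than in 82.8% of 2520 such genes. GRHL2 and OVOL1 stood at the other end, with SDs of 0.035 and 0.081, larger than in 5.13% and 4.81% of genes of like level. TP63 and ELF3, at 0.17 and 0.15, lay above 75.0% and 72.3% of such genes, and SOX2 and ZNF750, at 0.15 and 0.17, above 27.4% and 34.9%. A change of 0.20 passed for GRHL2, whereas one of 0.68 did not for EHF.

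**Figure D3:**
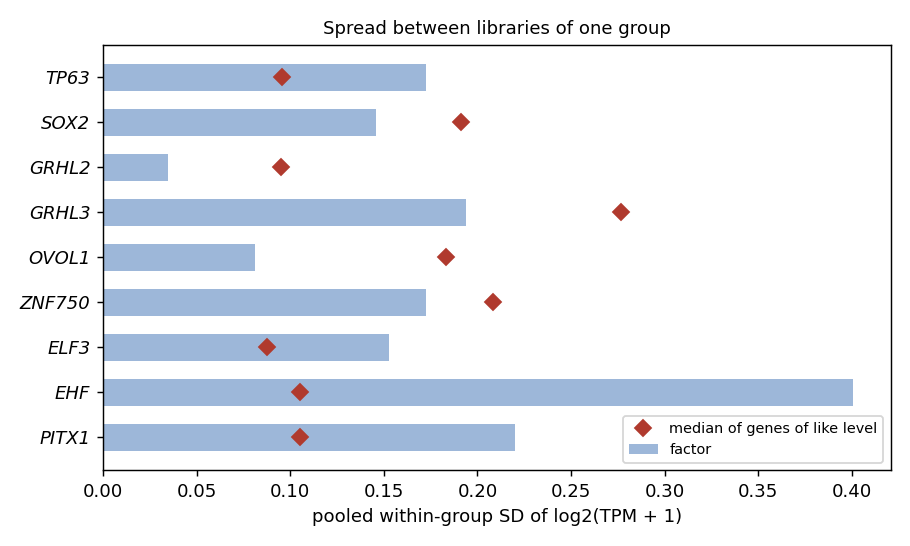
Pooled within-group SD of log2(TPM + 1) for each factor (bars) and the median over tested genes whose mean level lies within 0.5 on the same scale (diamonds). The SD of EHF, 0.40, stands against a median of 0.11, and that of GRHL2, 0.035, against 0.095.

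Relatives of the factors by family were taken as a list of 18 genes, of which 12 were tested. After radiation 1 rose and 1 fell in WT cells and 2 rose and 1 fell in KO cells. Among all tested genes 2.24% rose and 1.50% fell in WT cells, and 2.00% rose and 1.70% fell in KO cells. SOX9, a factor of progenitor and glandular epithelium, rose from 13.4 ± 1.48 to 22.7 ± 1.11 TPM in WT (log2 difference 0.72, adjusted p = 0.0019) and from 11.0 ± 0.964 to 18.2 ± 1.19 TPM in KO cells (0.69, adjusted p = 0.0029), the calls holding under every alternative. SOX4 fell by 0.27 (adjusted p = 0.019) and 0.26 (adjusted p = 0.022). GRHL1, the third grainyhead-like factor, rose in KO cells from 9.59 ± 0.483 to 12.5 ± 0.848 TPM (0.35, adjusted p = 0.023), and it was the only relative past the threshold between genotypes, higher in KO after radiation (0.33, adjusted p = 0.031). That genotype call was lost without KO 0 Gy replicate 2 or any one irradiated library. Between genotypes 3.59% of all tested genes passed after radiation and 1.73% without it. SOX9 alone was left in WT cells without WT 0 Gy replicate 1 or 3 or any one WT RT library, and SOX9 alone in KO cells without KO 0 Gy replicate 2 or 3 or KO RT replicate 2. SOX15 (93.4 TPM over all libraries) and ELF1 (83.9 TPM) were the relatives with the highest levels and had no call, while ELF5, SPDEF, SOX3, SOX21 and PITX3 averaged under 0.1 TPM.

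Of 25 other epithelial transcription factors 18 were tested. KLF4, a factor of epithelial differentiation, was the only one called between genotypes, lower in KO cells at 5.62 ± 0.769 against 23.7 ± 5.29 TPM without radiation and 8.37 ± 1.04 against 29.5 ± 3.31 TPM with it (log2 difference −1.88 and −1.70, adjusted p = 0.00015 and 0.00022). Of all tested genes 1.73% passed between genotypes in unirradiated and 3.59% in irradiated cells. Without WT RT replicate 1 or 2 the count of this list in unirradiated cells was 2. After radiation 4 of 18 fell and none rose in each genotype, where 1.50% of all tested genes fell in WT and 1.70% in KO cells. PAX9, an oral and oesophageal epithelial factor, fell from 82.8 ± 8.68 to 51.5 ± 0.973 TPM in WT (−0.67, adjusted p = 0.0011) and from 86.9 ± 5.41 to 58.5 ± 0.900 TPM in KO cells (−0.56, adjusted p = 0.0029). KLF3 fell by 0.29 and 0.37 and FOXQ1 by 0.53 and 0.65 on the log2 scale. The fourth was HES1 in WT (−0.22, adjusted p = 0.031) and CEBPB in KO cells (−0.31, adjusted p = 0.0071). The WT count was 1 or 2 without any one of WT 0 Gy replicates 1 and 2 and the WT RT replicates.

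A list of 25 genes, taken from general knowledge as basal keratinocyte or p63-activated genes and all tested, leaned lower after radiation. In WT cells 6 fell and none rose, with 21 of 25 below 0 and a median of −0.18. In KO cells 8 fell and none rose, with 25 of 25 below 0 and a median of −0.17, against a median of 0.02 over all tested genes in each genotype. The share of all tested genes that fell was 1.50% in WT and 1.70% in KO cells, and 7343 and 7299 of the 15973 lay below 0. FAT2, an atypical cadherin, fell from 66.8 ± 3.35 to 43.6 ± 0.324 TPM in WT (−0.60, adjusted p = 0.00014) and from 79.6 ± 2.96 to 52.4 ± 0.581 TPM in KO cells (−0.59, adjusted p = 0.00019). The desmosomal cadherin DSC3 fell by 0.40 and 0.36 (adjusted p = 0.0019 and 0.0037), and the growth factor receptor FGFR3 by 0.83 and 0.72 (adjusted p = 0.0051 and 0.010). These 3 held under every alternative in both genotypes. DSG3 and TRIM29 also passed in both genotypes, JAG2 in WT cells, and BMP7, IGFBP3 and PKP1 in KO cells. The KO count was 4 or 5 without any one KO library, and TP63 itself had no call.

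In the genotype comparison the same basal list had 3 genes higher and none lower without radiation, and 3 higher and 1 lower with it (median 0.12 in each). Over all tested genes 0.463% were higher and 1.26% lower without radiation, and 0.927% higher and 2.66% lower with it. DSC3 was higher in KO cells in both (0.32 and 0.36, adjusted p = 0.0077 and 0.0027), as was FAT2 (0.25 and 0.26, adjusted p = 0.025 and 0.014). KRT14, a basal keratin, was higher without radiation (0.24, adjusted p = 0.022) and FGFR3 with it (0.60, adjusted p = 0.022). COL17A1, a hemidesmosomal collagen, was lower in irradiated KO cells (−0.42, adjusted p = 0.022). The first count was 1 without WT 0 Gy replicate 1 or KO 0 Gy replicate 1 or 2, and the second 1 or 2 without any one irradiated library except KO RT replicate 2.

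Of 40 squamous differentiation genes 22 were tested. Between genotypes 2 were higher and none lower in unirradiated KO cells, and 3 higher and none lower in irradiated KO cells, with medians of 0.23 and 0.20. Among all tested genes 0.463% were higher and 1.26% lower without radiation, and 0.927% and 2.66% with it. Their medians were −0.021 and −0.017. KRT4, a keratin of the upper layers of mucosal epithelium, moved most: it was at 25.0 ± 3.40 TPM in unirradiated WT, 58.5 ± 2.80 in unirradiated KO, 8.67 ± 0.926 in irradiated WT and 24.7 ± 2.26 in irradiated KO cells. KRT4 was thus higher in KO cells (1.20 and 1.41, adjusted p = 0.00016 and 3.1e-05) and lower after radiation (−1.42 in WT and −1.21 in KO cells, adjusted p = 9.7e-05 and 0.00034). PADI3, a protein deiminase of the cornified layer, was higher in KO cells in both treatments (0.41 and 0.38, adjusted p = 0.00091 and 0.0010), and SCEL, a cornified envelope protein, in irradiated KO cells (0.42, adjusted p = 0.033). Without 1 library the KRT4 and PADI3 calls held in all 12 fits and the SCEL call in 5 (highest adjusted p = 0.11).

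After radiation 4 differentiation genes fell and 1 rose in WT cells, and 2 fell and 2 rose in KO cells. Over all tested genes 1.50% fell and 2.24% rose in WT cells, and 1.70% fell and 2.00% rose in KO cells. TGM1, the transglutaminase that crosslinks the cornified envelope, fell by 0.62 in WT and 0.83 in KO cells (adjusted p = 0.022 and 0.0054), whereas SPRR1B, one of the proteins it crosslinks, rose by 0.82 and 0.95 (adjusted p = 0.014 and 0.0063). SPRR1B went from 5.09 ± 0.695 to 9.85 ± 2.32 TPM in WT and from 7.04 ± 0.764 to 14.5 ± 1.16 TPM in KO cells. SCEL and KLK8 fell in WT cells, and PADI1 rose in KO cells, the SCEL and PADI1 calls each holding in 2 of the 12 fits without 1 library. The WT count was 1 to 3 without any one library other than WT 0 Gy replicate 3, KO 0 Gy replicate 3 or KO RT replicate 2.

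All 21 epithelial junction and polarity genes were tested. CGN, a tight junction protein, was higher in KO cells in both treatments (0.38 and 0.36, adjusted p = 0.013 in each), and RAB25 in irradiated KO cells (0.24, adjusted p = 0.028). ESRP1, the epithelial splicing factor, fell after radiation in both genotypes (−0.24 and −0.23, adjusted p = 0.011 and 0.015), EPCAM rose in both (0.15 and 0.18, adjusted p = 0.046 and 0.023), and OCLN rose in WT cells (0.30, adjusted p = 0.049). Of the 12 fits without 1 library, the EPCAM call held in 0 in WT and 6 in KO cells, the OCLN call in 1, the RAB25 call in 7, and those of CGN and ESRP1 in 9 to 11. The median of the list ranged from −0.01 to 0.07 over the 4 comparisons, and the counts of 2 to 4 called genes fell to 1 or 2 in some fits without 1 library, for radiation in WT cells in 11 of 12. The share of all tested genes called was 1.73% to 3.74% over the same comparisons.

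Of 16 mesenchymal factors and genes 10 were tested. After radiation 4 rose and none fell in WT cells, and 3 rose and none fell in KO cells, against 2.24% and 2.00% of all tested genes that rose. CDH2, N-cadherin, rose from 9.06 ± 0.622 to 14.0 ± 0.195 TPM in WT (0.57, adjusted p = 0.0011) and from 8.98 ± 0.169 to 14.5 ± 0.611 TPM in KO cells (0.63, adjusted p = 0.00062). FN1, fibronectin, rose in both (0.68 and 0.92, adjusted p = 0.034 and 0.0086), as did MMP2 (0.58 and 0.44, adjusted p = 0.016 and 0.0498), and SNAI1, a repressor of E-cadherin, rose in WT cells (0.64, adjusted p = 0.023). The MMP2 call in KO cells held in 1 of the 12 fits without 1 library and that in WT cells in 9, the FN1 call in WT cells in 6 and the SNAI1 call in 7, while those of CDH2, and of FN1 in KO cells, held in all 12. FN1 was lower in unirradiated KO than WT cells (−0.83, adjusted p = 0.017), a call lost without WT 0 Gy replicate 1 or KO 0 Gy replicate 2 or 3. VIM, ZEB1 and ZEB2, which OVOL and GRHL factors are known to oppose, averaged 0.967, 0.377 and 0.0734 TPM, and of these only VIM passed the filter on low values, with no call. Other mesenchymal factors of the list were well above these, SNAI2 at 65.2, TWIST2 at 20.9 and TWIST1 at 5.43 TPM, also without a call. The WT count was 1 or 2 without WT 0 Gy replicate 2 or 3 or WT RT replicate 1 or 2.

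**Figure D4:**
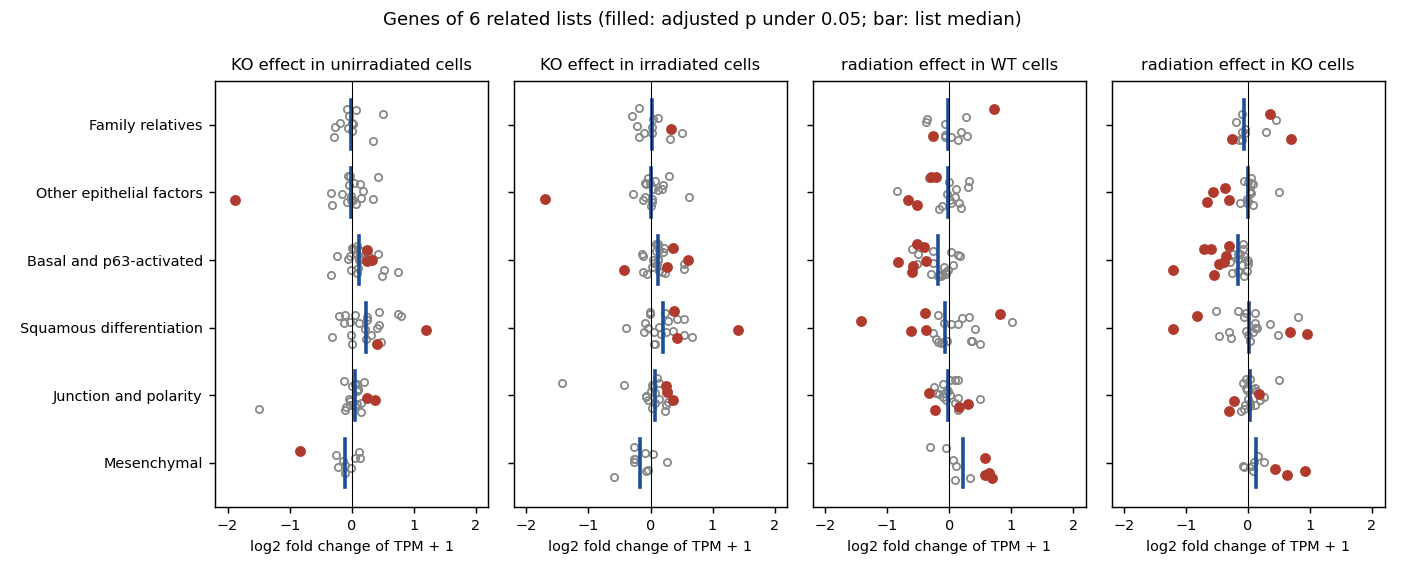
Log2 fold changes of TPM + 1 for tested genes of 6 lists, 1 point a gene, in the 4 comparisons. Filled points passed an adjusted p of 0.05, and bars are list medians. Basal and p63-activated genes lay below 0 for 25 of 25 genes after radiation in KO cells and for 21 of 25 in WT cells. Of all 15973 tested genes, 7299 lay below 0 in KO and 7343 in WT cells.

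Among 11145 genes of at least 5 TPM on average, those whose log2 levels tracked a factor most closely over the 12 libraries are given as a description. The libraries share their 4 groups, so a group difference common to both genes raises r, and the correlation of deviations from group means is given beside it. For SOX2 they were RPL5 (r = 0.963, 0.561 within groups), LYPD1 (0.944, 0.383) and SNX18 (0.939, 0.414). For ELF3 they were SLC22A23 (0.968, 0.702), GPSM2 (0.964, 0.447) and NRARP (0.963, 0.584). For GRHL2 they were FAM83D (0.974, 0.721), WNT10A (0.969, 0.758) and NUCKS1 (0.969, 0.357), and for OVOL1 EAF1 (0.983, 0.755), PHLDA1 (0.973, 0.566) and MSX1 (0.973, 0.900). For TP63, which had no group call, they were APEH (0.893, 0.848), ATP5G1 (0.890, 0.922) and RPL27 (0.881, 0.728). Among the factors themselves GRHL2 and ELF3 tracked each other (r = 0.952) and ran against OVOL1 (−0.923 and −0.913), but within groups these correlations were 0.311, 0.169 and 0.268.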

How the data were processed

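Polyadenylated RNA of 12 FaDu libraries was sequenced as paired ends. The authors deposited TPM per gene. Their processing notes name hg38, HISAT2, StringTie and DESeq2 without versions or roles, and the strand setting and annotation are not given in the sources used here. TPM keeps no depth, so no counting interval could be given, and precision rests on 3 libraries a group. No sequencing batch or date is labelled.

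From the deposited TPM, log2(TPM + 1) was fitted with limma 3.58.1 (R 4.3.3; 4 group means, eBayes with trend, 8 residual degrees of freedom) for the 15973 genes with at least 1 TPM in 3 or more libraries, and p-values were adjusted by Benjamini-Hochberg over all tested genes (threshold 0.05) in each of 5 contrasts. The code was tested on simulated data. GRHL3 was compared with exact permutation tests. The columns name lines, not genotypes; they were assigned from the guide names in the methods and the column heads of the study's own table, and TMEM173 levels followed that assignment.

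The factors and lists were chosen with earlier results of these data known. The lists were compiled from general knowledge and are described by counts and medians, without a test. Named genes were the factors, TMEM173, up to 4 called genes with the lowest adjusted p per list and contrast (other called genes only by symbol, and some items not reported here), the 3 genes closest to TP63, SOX2 and each called factor, and genes overlapping a factor. KRT17, KRT8, KRT20, LUM, COL1A1 and CDH5, uncalled relatives and VIM, ZEB1, ZEB2, SNAI2, TWIST1 and TWIST2 were named for their levels after these were seen. Coordinates are from GENCODE on GRCh38; 58025 of 58288 gene IDs matched. That of GRHL2 matched with another version, so no position is given. Promoters are from RefSeq (GRCh38.p14). Alternatives were another pseudocount, filters, scalings, eBayes without trend, a replicate block, the 6 compared libraries alone and leaving out each library. List counts under these were added after seeing the data. Figures were drawn with matplotlib 3.10.9.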

Additional observations from a re-analysis of the deposited data

How the results depend on the processing

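No value of the 8 factors changed direction under another pseudocount (0.1), filter, scaling, variance trend, block or the fit of the 6 compared libraries, and of these 297 values 282 kept their side of the threshold, 14 lost a call and 1 gained one. Median-of-ratios and quantile scaling changed no factor's call and moved the median of all genes by less than 0.1. With a mean of at least 5 TPM required, 0 factors were called in both genotype comparisons, since SOX2 was then not tested. With only the 6 compared libraries the factors called were 0 (KO effect, 0 Gy), 1 (radiation, WT) and 0 (radiation, KO), and for the KO effect after radiation 1, ELF3 and not SOX2 (adjusted p = 0.058). All genes called then were 103, 252, 166 and 195, against 276, 573, 597 and 590. For the difference of the radiation effects all genes called were 7 with no filter and 1 without the trend, against 3; with the 6 libraries alone it could not be fitted.

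Replicate numbers did not pair the libraries: correlations of same-numbered deviations from group means were −0.060 to 0.064, with 0 of 18 over 0.1, and 4 of 12 libraries correlated best with their own number. With the replicate block, 0 factors were called for the KO effect after radiation (SOX2 adjusted p = 0.052), 1 for radiation in KO cells (ELF3), 1 in the KO effect without radiation and 2 for radiation in WT cells. All genes called with the block were 211, 378, 315, 359 and, for the difference, 1.

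Leaving out each library in turn, the factors called ranged from 1 to 2 (KO effect, 0 Gy), 0 to 2 (KO effect, RT), 1 to 4 (radiation, WT) and 1 to 3 (radiation, KO), and were 0 throughout for the difference. All genes called ranged from 172 to 292, 313 to 542, 242 to 526, 268 to 553 and 1 to 9. Among these 480 values of the factors 14 changed sign, each without a call: the KO effect without radiation of ZNF750 (−0.11 to 0.20) and EHF (−0.49 to 0.053), the radiation effect in WT cells of ZNF750 (−0.18 to 0.13) and EHF (−0.24 to 0.16), and the difference of radiation effects of GRHL2 (−0.027 to 0.018) and ELF3 (−0.088 to 0.14). Of 91 calls of named list genes, marker lists included, 43 held in every alternative, 48 were lost in at least 1 and none changed sign. Calls were counted per list, so a call of DSC3, KRT14 or DSG3 named in both the basal and the squamous marker list counted in each. The depth of the libraries is unknown, so limits set by it could not be given.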

Other observations

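Among the marker lists used to describe the cells, 3 keratins of simple epithelium were called after radiation, KRT7 and KRT18 higher and KRT19 lower, and KRT19 alone was called between genotypes, while KRT8 had no call. KRT18 rose after radiation from 682 ± 46.5 to 986 ± 27.0 TPM (SD, n = 3) in WT and from 759 ± 28.7 to 1063 ± 29.6 TPM in KO cells (limma adjusted p = 0.00060 and 0.00096), and KRT7 from 90.9 ± 25.9 to 191 ± 15.6 and from 83.8 ± 2.78 to 170.5 ± 7.36 TPM (adjusted p = 0.0064 and 0.0098). KRT19 fell, from 1027 ± 23.5 to 717 ± 5.41 TPM in WT and from 1396 ± 23.5 to 1022 ± 16.6 TPM in KO cells, and was higher in KO cells in each treatment (log2 difference 0.44 and 0.51, adjusted p = 2.7e-05 and 7.8e-06). KRT16, a keratin of activated keratinocytes, rose from 16.8 ± 1.96 to 32.3 ± 2.75 TPM in WT and from 17.3 ± 2.55 to 32.0 ± 3.60 TPM in KO cells (adjusted p = 0.0034 and 0.0051), and KRT17 was lower in KO cells without and with radiation (−0.29 and −0.46, adjusted p = 0.014 and 0.00049).

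Of 12 squamous markers 2 were higher and 1 lower in unirradiated KO than WT cells, and 1 higher and 2 lower in irradiated cells; after radiation 1 rose and 2 fell in WT, and 1 rose and 4 fell in KO cells. Of 6 tested glandular markers 2 and 1 were higher in KO cells without and with radiation and none lower, and 2 rose and 2 fell after radiation in each genotype. Among all tested genes 1.73% and 3.59% passed between genotypes without and with radiation. After radiation 3.74% passed in WT and 3.69% in KO cells. The 1 tested fibroblast marker, COL1A1, had no call. Of 3 tested blood and endothelial markers CD14 was higher in unirradiated KO cells (0.40, adjusted p = 0.043), a call that held in 1 of the 12 fits without 1 library, and CDH5 rose after radiation in WT and KO cells (0.61 in each, adjusted p = 0.029 and 0.026), calls that held in 7 and 8 of those 12 fits. The lung and thyroid factor NKX2-1 was listed at 4.04 to 6.38 TPM as group means in this pharyngeal line and fell after radiation in WT cells (−0.55, adjusted p = 0.024), a call that held in 6 of the 12.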
